A study of Mus musculus with 24 samples.

Results

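The genes described here encode the proteins of the mitochondrial ribosome, taken as every gene of the deposited table whose symbol is Mrpl or Mrps followed by a number and, in some, a letter a, b or c. The rule gave 78 of 55487 genes, 49 named for the large subunit and 29 named for the small subunit. The rule itself reads symbols alone. All 78 passed the filter on low counts that 15828 genes passed, and their lowest count in any library was 239.

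Poly(A) RNA of mouse embryonic fibroblasts (MEFs), connective tissue cells grown from mouse embryos, was sequenced in 24 libraries of 6 groups with 4 libraries each. The cells were wild-type (WT) or labelled AMPK KO, and the methods of the study describe the latter as double knockout for prkaa1 and prkaa2, the genes of the catalytic subunits of AMP-activated protein kinase (AMPK), which senses low cellular energy. Each genotype was treated with DMSO as vehicle, with MK-8722 (MK8722 in the labels), a small molecule that activates AMPK, or with torin1 (Torin-1 in the labels), an inhibitor of the kinase MTOR, and for these samples the labels give neither a dose nor a treatment time. Both genotypes are cultured MEFs supplied by another laboratory, and the labels name no clone. WT cells were used at passages 12 to 15 and AMPK KO cells at passages 16 to 19, with 1 library of each passage in every group, so genotype and passage cannot be told apart. Separate passages are the sole sign that libraries of a group are separate cultures, and p-values measure the spread between these libraries.

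Mitochondria hold their own ribosomes, which translate the few messenger RNAs made from mitochondrial DNA, all of them for subunits of the respiratory chain and ATP synthase. The ribosomal RNAs of these ribosomes come from mitochondrial DNA as well, whereas every protein is encoded in the nucleus, made in the cytosol and imported. Some of the proteins descend from the ribosome of the bacterial ancestor and others are found in mitochondria alone, and MTOR and AMPK are known as regulators of cell growth and of mitochondrial content.

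Promoters of 4 genes are printed because the results below turn on these genes. Mrps12 and Mrps30 had the largest differences between genotypes in opposite directions, Mrpl20 had the largest change with torin1, and Mrpl34 had the largest difference in torin1 response. Each sequence is the 250 bases before the gene's start, 5′ to 3′ on the strand of the gene, from RefSeq on GRCm38.p6, at chr7:28741822-28742071 on the minus strand, chr13:118387253-118387502 on the minus strand, chr8:71464676-71464925 on the plus strand and chr4:155802628-155802877 on the plus strand. Capitals mark matches on either strand to the motifs described further on, which are 2 CCAAT boxes and a YY1 core in Mrps12, a CCAAT box in Mrps30, an ETS core in Mrpl34 and no match in Mrpl20.
Mrps12: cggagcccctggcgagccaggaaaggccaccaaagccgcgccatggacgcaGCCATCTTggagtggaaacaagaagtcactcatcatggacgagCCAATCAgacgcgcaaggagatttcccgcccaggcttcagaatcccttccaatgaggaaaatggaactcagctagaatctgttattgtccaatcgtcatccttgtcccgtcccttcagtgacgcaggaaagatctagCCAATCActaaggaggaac
Mrps30: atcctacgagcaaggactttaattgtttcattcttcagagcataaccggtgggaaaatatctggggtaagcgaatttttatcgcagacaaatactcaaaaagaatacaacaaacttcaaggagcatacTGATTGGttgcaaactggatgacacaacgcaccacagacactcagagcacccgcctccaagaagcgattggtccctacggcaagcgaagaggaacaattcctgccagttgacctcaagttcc
Mrpl34: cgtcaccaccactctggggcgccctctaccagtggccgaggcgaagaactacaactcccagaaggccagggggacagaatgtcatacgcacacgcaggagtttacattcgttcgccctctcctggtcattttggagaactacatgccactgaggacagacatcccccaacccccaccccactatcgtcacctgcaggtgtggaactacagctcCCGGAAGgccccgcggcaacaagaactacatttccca
Mrpl20: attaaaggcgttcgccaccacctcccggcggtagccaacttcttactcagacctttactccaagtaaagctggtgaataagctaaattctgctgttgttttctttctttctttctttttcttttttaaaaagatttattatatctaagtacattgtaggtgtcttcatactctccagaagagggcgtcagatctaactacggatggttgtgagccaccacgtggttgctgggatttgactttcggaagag

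Libraries held 26900240 to 34192685 estimated counts, and replicates of a group correlated with Pearson's r of 0.9888 to 0.9934 over 36 pairs. Prkaa1 averaged 80.9 ± 2.0 CPM (counts scaled to the size of the library, SD, n = 4) in WT with DMSO and 70.9 ± 2.95 CPM in AMPK KO with DMSO, and Prkaa2 averaged 4.74 ± 1.12 and 3.21 ± 0.97 CPM. Between genotypes Prkaa1 had log2 fold changes of -0.19, -0.23 and -0.042 with DMSO, MK-8722 and torin1, under the fold change of 1.2 in each, and Prkaa2 was lower in AMPK KO with DMSO (-0.56 ± 0.20 (SE, adjusted p = 0.015)) and MK-8722 (-1.19 ± 0.19 (SE, adjusted p = 7e-06)) but had 0.13 ± 0.19 (SE, adjusted p = 0.58) with torin1. Counts over whole genes do not show which part of a gene was removed and therefore do not check the label, and the name AMPK KO is used here for the label alone. Of 10 fibroblast markers, 7 were tested, Dcn, Lum and Fap were at or near 0 TPM in all groups, and the summed level was 5974 ± 692 TPM in WT with DMSO (5003 to 6615) against 2793 ± 279 TPM in AMPK KO with DMSO (2401 to 3005), while 13 markers of other cell types summed to group means of 5.58 to 12.1 TPM, with Adgre1 at 0 in every group. The markers moved with the drugs as well. With torin1 the fibroblast sum was 7520 ± 630.3 TPM in WT (6893 to 8294) and 3814 ± 161 TPM in AMPK KO (3589 to 3967), above every DMSO library of the genotype, while Col1a1 and Col1a2 fell in both. The sum of the other markers was 5.58 ± 0.70 TPM (5.05 to 6.58) with DMSO, 9.04 ± 0.88 TPM (7.82 to 9.90) with MK-8722 and 9.54 ± 1.25 TPM (8.24 to 10.6) with torin1 in WT, and 7.70 ± 0.37, 9.12 ± 0.87 and 12.1 ± 0.21 TPM in AMPK KO. Of the 9 other markers that were tested, 6 rose with torin1 in WT and 3 in AMPK KO, where 26.6% and 25.9% of all genes were called higher. The part of these marker differences in the genotype and drug results was not tested. In bulk RNA, fewer cells of a type and less RNA per cell cannot be told apart.

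Compared per length, in TPM, a transcript level scaled for length and depth, the 78 genes together made up 0.642 ± 0.011% of all transcripts in WT cells with DMSO (0.632 to 0.657% over 4 libraries). The share was 0.616 ± 0.0087% with MK-8722 (0.606 to 0.626%) and 0.586 ± 0.0053% with torin1 (0.579 to 0.590%) in WT cells. In AMPK KO cells it was 0.749 ± 0.006% with DMSO (0.743 to 0.756%), 0.733 ± 0.0061% with MK-8722 (0.726 to 0.74%) and 0.645 ± 0.0046% with torin1 (0.640 to 0.650%). By this share, libraries of each genotype lay in the order DMSO, MK-8722, torin1 without overlap. In each treatment all AMPK KO libraries were above all WT libraries. The share lacks the TMM scaling used for the tests, and with it some of these groups overlapped. On that scale, the members' mean log2 CPM, centred per gene, was 0.103 to 0.17 with DMSO and 0.125 to 0.149 with MK-8722 in AMPK KO. With torin1 it was -0.159 to -0.096 in AMPK KO and -0.185 to -0.153 in WT. The other orders held. The mean TPM of a large subunit gene was 1.13 ± 0.014 times that of a small subunit gene in WT with DMSO and 1.18 ± 0.015 times with torin1, and 1.13 ± 0.0079 and 1.18 ± 0.0074 times in AMPK KO. Every torin1 library had a higher ratio than every DMSO library of its genotype.

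Levels of single genes spanned a wide range although the ribosome holds most of these proteins in equal number. In WT cells with DMSO, the highest large subunit genes were Mrpl54 at 249 ± 16.2 TPM, Mrpl42 at 244 ± 14.2 TPM and Mrpl52 at 214.5 ± 3.93 TPM (SD, n = 4), and the lowest were Mrpl1 at 13.6 ± 0.64 TPM, Mrpl44 at 22.04 ± 0.97 TPM and Mrpl47 at 24.6 ± 2.24 TPM. Mrpl54 and Mrpl42 did not differ beyond their spread, since their libraries held 265, 247, 258 and 228 TPM and 253, 234, 258 and 229.6 TPM. Mrpl1, at 13.7, 12.7, 14.1 and 14.03 TPM, was below every other member in each of the 4 libraries. Among small subunit genes, Mrps21 with 202 ± 16.6 TPM, Mrps5 with 151 ± 5.46 TPM and Mrps18b with 132 ± 4.71 TPM were the highest, and Mrps31 with 26.6 ± 1.44 TPM, Mrps30 with 28.7 ± 0.66 TPM and Mrps14 with 38.25 ± 1.14 TPM the lowest. Mrps31 and Mrps30 nearly met, with libraries at 24.8, 26.2, 28.1 and 27.3 TPM and 28.7, 28.2, 28.2 and 29.6 TPM. The third places are not set apart from the fourth, since Mrps2 had 36.7, 37.4, 38.3 and 40.8 TPM against 36.96, 37.9, 39.7 and 38.4 TPM for Mrps14, and Mrpl46 had 26.1, 26.01, 25.4 and 21.99 TPM against 21.9, 24.2, 27.3 and 25.2 TPM for Mrpl47.

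**Figure D1:**
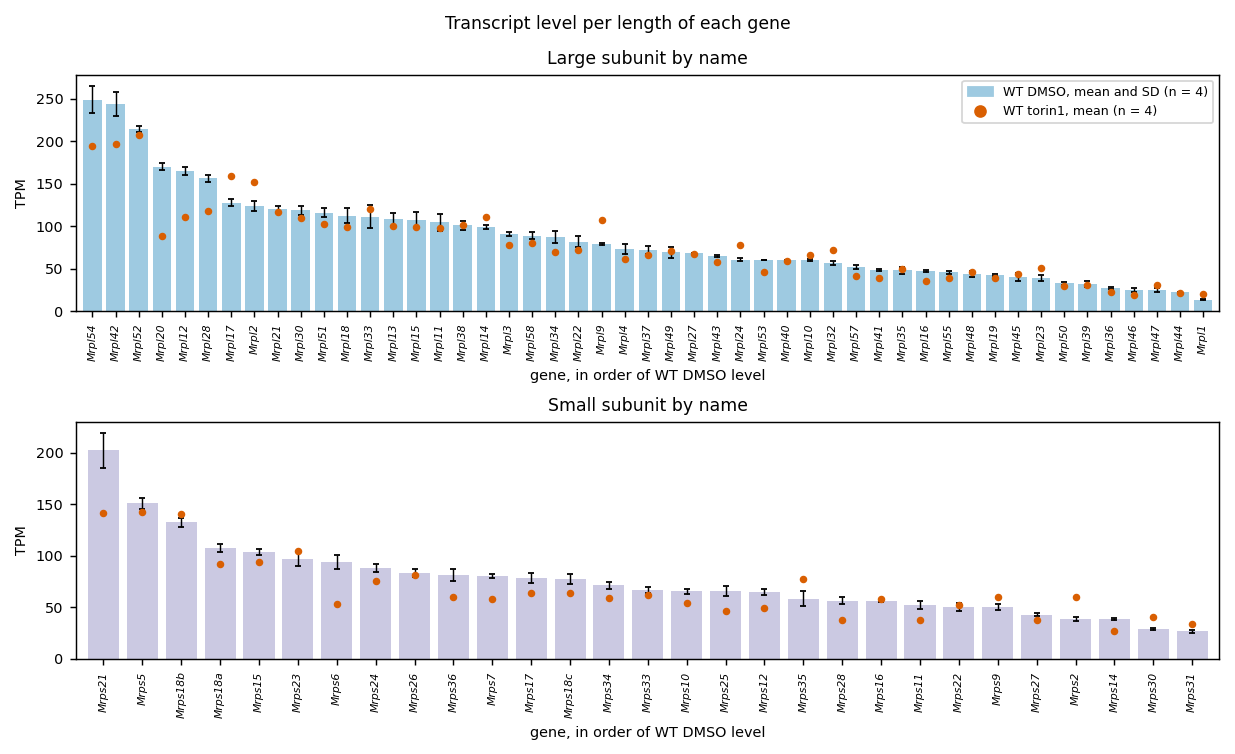
Transcript level per length (TPM) of each gene named for the large and the small subunit, in order of its mean in WT cells with DMSO, with groups by colour and symbol. Large subunit means in WT with DMSO ran from 13.6 TPM for Mrpl1 to 249 TPM for Mrpl54, and small subunit means from 26.6 TPM for Mrps31 to 202 TPM for Mrps21.

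**Figure D2:**
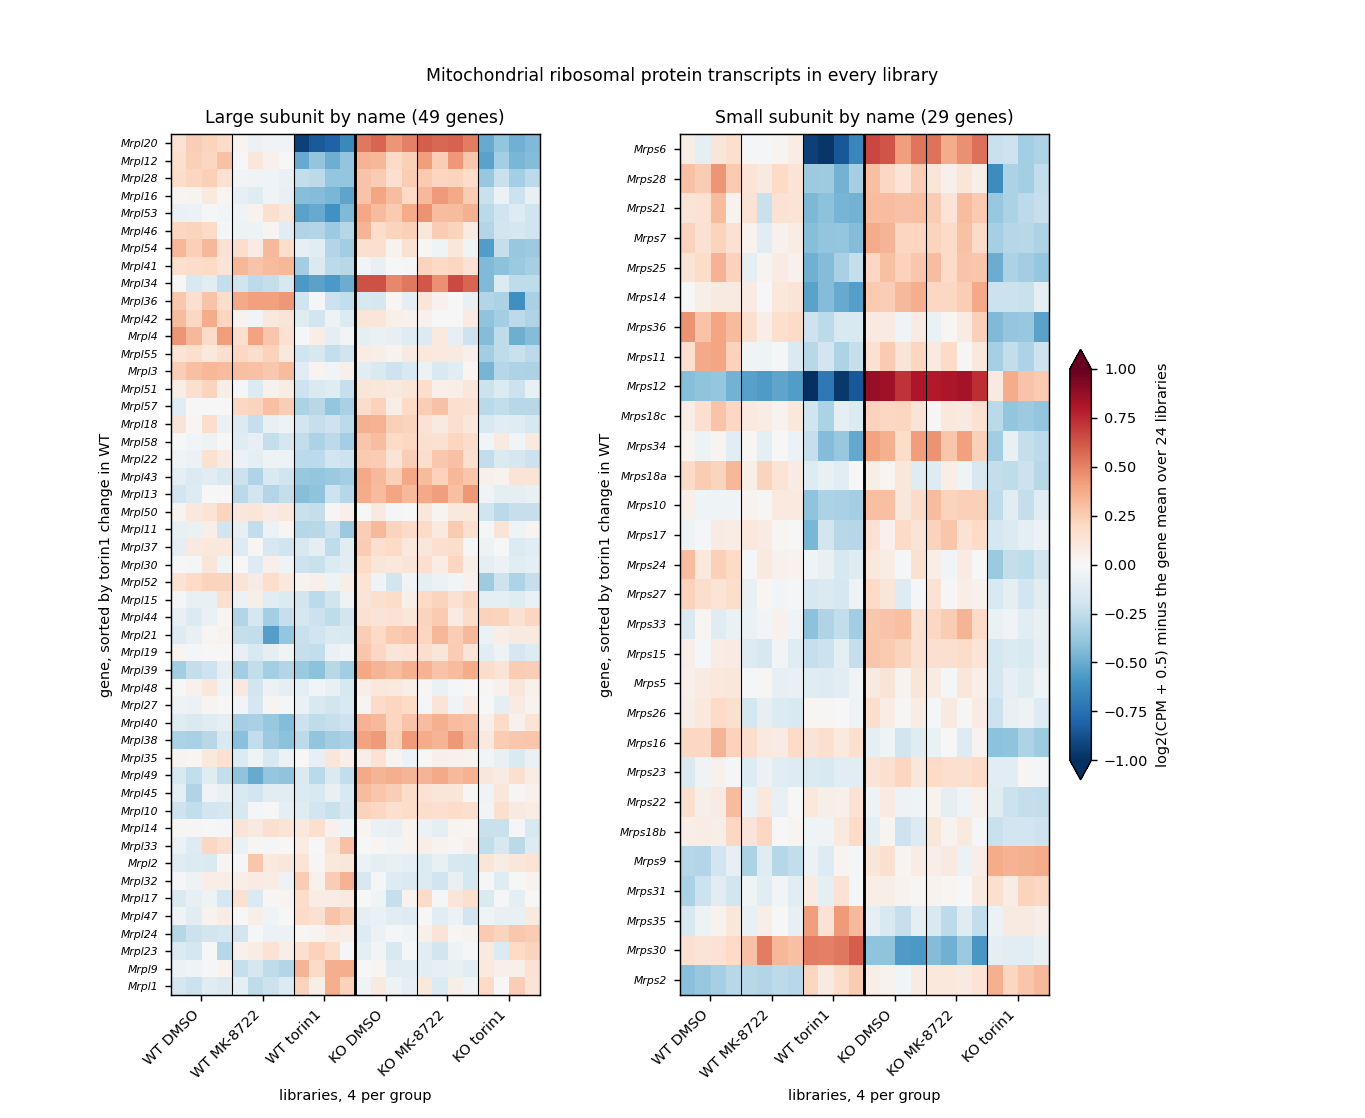
Level of each gene in each of the 24 libraries, as log2(CPM + 0.5) minus the mean of that gene over all libraries, with colours held at 1 and -1. Torin1 libraries are lower (blue) for most genes in both genotypes, with Mrps30 and Mrps2 at the bottom of the small subunit panel higher, and Mrps12 is high in every AMPK KO library.

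Torin1 was compared with DMSO in each genotype, to see how inhibition of MTOR moved these transcripts and whether the labelled loss of AMPK changed that. More members fell than rose, in both genotypes. In WT cells 35 of the 78 genes fell and 6 rose by a fold change of 1.2 or more with an adjusted p below 0.05 (edgeR's quasi-likelihood test), and in AMPK KO cells 35 fell and 3 rose. Over all 15828 genes 47.6% were called in WT cells (26.6% higher, 21.1% lower) and 43.5% in AMPK KO cells (25.9% higher, 17.6% lower), against 52.6% and 48.7% of the members, of which 44.9% were lower in each genotype. The median log2 fold change of the members was -0.24 in WT and -0.25 in AMPK KO, beside 0.036 and 0.055 over all genes. Both torin1 comparisons use their own DMSO libraries, and 32 members were called in both genotypes, 15 in 1 of them and 31 in neither.

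Small subunit transcripts were called lower more widely than those of the large subunit, which is a count and not a tested difference. In WT cells 16 of 29 small subunit genes fell and 3 rose, with a median of -0.32, and 19 of 49 large subunit genes fell and 3 rose, with a median of -0.19. In AMPK KO cells the small subunit had 16 lower and 2 higher with a median of -0.33, and the large subunit 19 lower and 1 higher with a median of -0.23. Of the 16 small subunit proteins with a bacterial counterpart, 11 fell and 1 rose in each genotype, and the medians were -0.36 and -0.44. Of the 10 small subunit proteins particular to mitochondria, 3 fell in each genotype and 1 rose in WT. The 19 large subunit proteins particular to mitochondria were all on the negative side of 0 in WT, and 8 of them fell, as did 11 of the 30 with a bacterial counterpart, of which 3 rose.

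**Figure D3:**
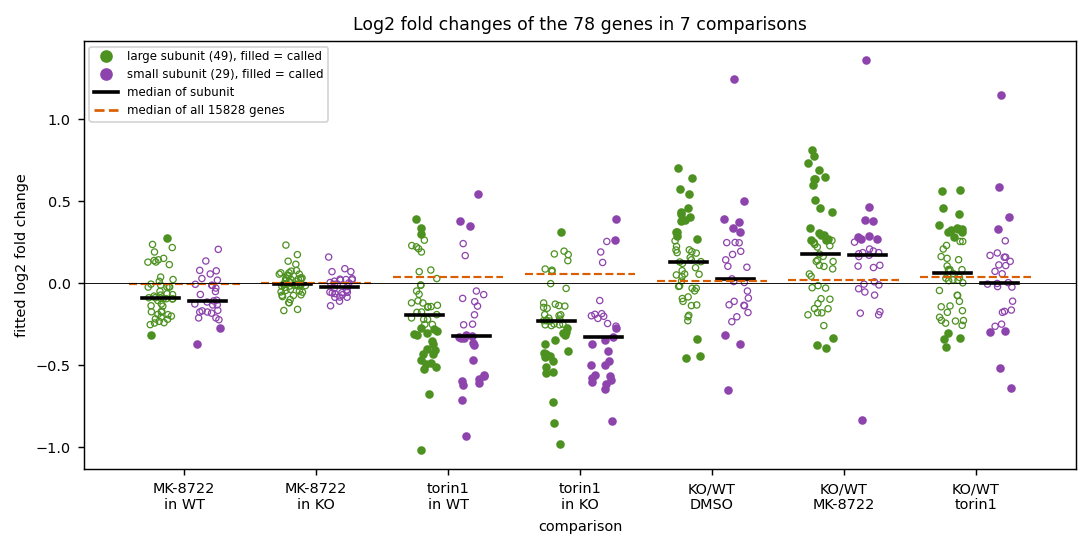
Fitted log2 fold change of each gene in 7 comparisons, large subunit in green and small subunit in purple, filled where the gene was called, with black bars at the subunit medians and dashed lines at the median of all 15828 genes. With torin1 the large subunit medians were -0.19 (WT) and -0.23 (AMPK KO) and the small subunit medians -0.32 and -0.33, all below the median of all genes.

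Mrpl20 (chr4:155802878-155809975, plus strand), a large subunit protein with a bacterial counterpart that binds ribosomal RNA early in assembly, had the largest fall in both genotypes. In WT cells it measured 64.1, 68.6, 67.7 and 66.3 CPM with DMSO and 30.1, 32.1, 32.8 and 36.7 CPM with torin1. In AMPK KO cells it measured 83.8, 86.8, 78.7 and 82.2 CPM with DMSO and 40.7, 43.97, 41.4 and 42.4 CPM with torin1. Every torin1 library was well below every DMSO library, and the log2 fold change was -1.02 ± 0.048 (SE, adjusted p = 3.5e-14) in WT and -0.98 ± 0.047 (SE, adjusted p = 1.7e-13) in AMPK KO.

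Mrps6 (chr16:92058270-92112227, plus strand), a small subunit protein of the platform with a bacterial counterpart, followed. WT cells had 44.5, 39.9, 46.5 and 47.7 CPM with DMSO and 22.1, 21.4, 23.5 and 26.9 CPM with torin1, and AMPK KO cells 67.9, 66.3, 57.1 and 61.9 and 36.4, 36.95, 33.7 and 34.3 CPM. The groups did not overlap within a genotype, with log2 fold changes of -0.93 ± 0.069 (SE, adjusted p = 5.4e-11) and -0.84 ± 0.067 (SE, adjusted p = 2.6e-10). Exons of Gm49711 cover 19.9% and those of Slc5a3 10.4% of its exonic bases, and 18.4% of its sequence stretches of 31 bases also occur in transcripts of other genes, so the split of reads there is uncertain.

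Mrpl12, the protein of the ribosomal stalk that is also known to bind the mitochondrial RNA polymerase, fell from 120.3, 127, 124 and 131 CPM to 75.3, 81.6, 76.3 and 81.6 CPM in WT cells. In AMPK KO cells it fell from 136, 135, 123 and 127 CPM to 73.9, 84.4, 77.9 and 79.3 CPM. The ranges were apart in both genotypes, and the log2 fold changes were -0.67 ± 0.05 (SE, adjusted p = 5.3e-11) and -0.72 ± 0.05 (SE, adjusted p = 2.9e-11). Mrps28 fell by a similar amount, from 24.1, 23.4, 26.8 and 23.6 to 15.1, 15.2, 14.03 and 15.5 CPM in WT (-0.71 ± 0.066 (SE, adjusted p = 2.2e-09)) and from 24.3, 22.7, 21.7 and 23.3 to 12.5, 15.6, 15.4 and 16.5 CPM in AMPK KO (-0.62 ± 0.066 (SE, adjusted p = 2.8e-08)). Mrps7, a protein of the small subunit head, and Mrps21 fell in WT by 0.61 and 0.62 on the log2 scale, and Mrps25 fell in AMPK KO by 0.65, although exons of the gene Nr2c2 on the opposite strand cover 69.8% of the exonic bases of Mrps25.

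A few members rose with torin1 against the direction of the rest. Mrps30 (chr13:118378381-118387252, minus strand), named for the small subunit but a protein of the large subunit in the mammalian ribosome, rose in both genotypes and is the only member called higher in both. WT cells had 62.2, 61.2, 61.9 and 64.01 CPM with DMSO and 79.7, 79.2, 80.5 and 85.4 CPM with torin1, and AMPK KO cells 42.1, 42.1, 37.5 and 37.4 and 52.2, 51.7, 51.7 and 52.9 CPM. All torin1 libraries exceeded all DMSO libraries of their genotype (0.38 ± 0.051 (SE, adjusted p = 7.6e-07) and 0.39 ± 0.052 (SE, adjusted p = 9.3e-07)). Mrps2, a small subunit protein with a bacterial counterpart, had the largest rise in WT, from 49.4, 50.7, 52.5 and 54.6 CPM to 76.9, 70.4, 75.3 and 79.2 CPM (0.54 ± 0.04 (SE, adjusted p = 4.8e-11)). In AMPK KO it went from 69.4, 67.8, 65.1 and 70.1 CPM to 84.7, 77.1, 80.4 and 82.9 CPM, without overlap, but below the fold change of 1.2 (0.26 ± 0.04 (SE, adjusted p = 7.2e-06)).

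The other members that rose were, in WT cells, Mrpl1 (0.39 ± 0.066 (SE, adjusted p = 1.7e-05)), Mrps35 (0.35 ± 0.064 (SE, adjusted p = 4.7e-05)), Mrpl9 (0.34 ± 0.042 (SE, adjusted p = 2.5e-07)) and Mrpl23 (0.30 ± 0.075 (SE, adjusted p = 0.0013)), and the groups overlapped for Mrpl23. Without WT DMSO replicate 4 or WT torin1 replicate 2 the value of Mrpl23 was 0.25 and 0.26, under the fold change of 1.2. In AMPK KO cells Mrpl24 (0.32 ± 0.039 (SE, adjusted p = 3.5e-07)) and Mrps9 (0.26 ± 0.05 (SE, adjusted p = 8.7e-05)) rose, and Mrps9 lay just above the fold change of 1.2. The value of Mrps9 was 0.20 to 0.26, under that fold change, without AMPK KO DMSO replicate 3 or 4 or without any 1 of the AMPK KO torin1 libraries. Exons of Rrnad1 on the opposite strand cover 26.3% of the exonic bases of Mrpl24. Mrps36, which is now known as a subunit of the 2-oxoglutarate dehydrogenase complex rather than of the ribosome, fell in WT (-0.57 ± 0.059 (SE, adjusted p = 1.5e-08)) and in AMPK KO (-0.50 ± 0.06 (SE, adjusted p = 1.8e-07)). Mrpl58, a peptidyl-tRNA hydrolase built into the large subunit that frees stalled ribosomes, fell in WT (-0.28 ± 0.043 (SE, adjusted p = 6.4e-06)), though by -0.26 and under the fold change of 1.2 without WT torin1 replicate 3, and had -0.22 ± 0.042 (SE, adjusted p = 0.00011) in AMPK KO, also under it. Of the 3 Mrps18 homologues, Mrps18a, which sits in the large subunit, and Mrps18c fell in WT by 0.33 and 0.38 on the log2 scale and in AMPK KO by 0.27 and 0.57, and Mrps18b had -0.047 ± 0.056 (SE, adjusted p = 0.49) and -0.11 ± 0.057 (SE, adjusted p = 0.12). Exons of other genes cover 30.5% of the exonic bases of Mrps18b and 23.2% of those of Mrps18c. Of the sequence stretches of 31 bases of Mrps18c, 32.8% also occur in transcripts of other genes.

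**Figure D4:**
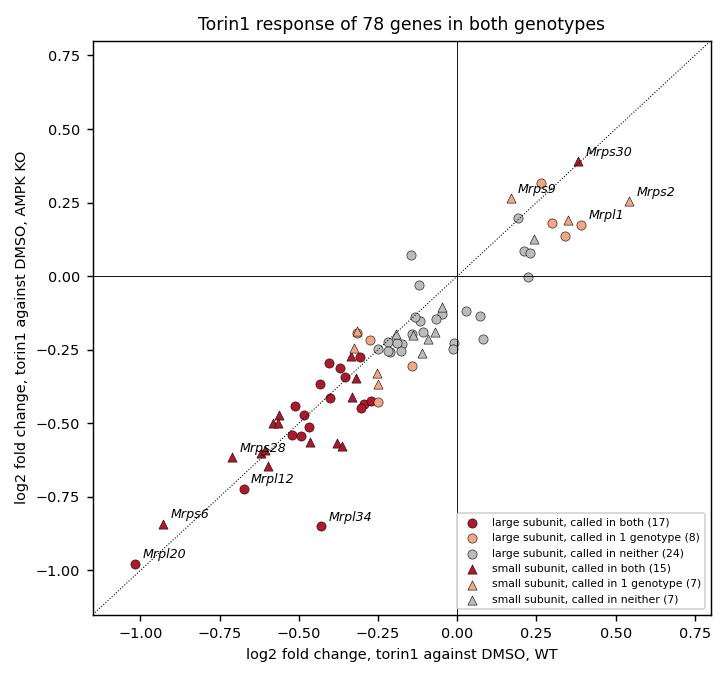
Log2 fold change with torin1 in WT cells (x axis) and in AMPK KO cells (y axis) for each of the 78 genes, with large subunit genes as circles, small subunit genes as triangles and colour for the number of genotypes in which the gene was called. Mrpl20 at -1.02 and -0.98 and Mrps6 at -0.93 and -0.84 lie near the dotted line of equal change, and Mrpl34 at -0.43 and -0.85 lies below it.

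The difference between the torin1 responses of the genotypes was tested gene by gene as an interaction. It was called for 3 of the 78 members (3.85%), all more negative in AMPK KO, against 7.07% of all genes (4.15% more positive, 2.92% more negative). Mrpl34 (chr8:71464959-71465747, plus strand), a large subunit protein with a bacterial counterpart, had the largest. It measured 29.9, 26.7, 27.7 and 25.2 CPM with DMSO and 19.9, 20.4, 19.9 and 21.04 CPM with torin1 in WT, and 46.6, 46.5, 41.8 and 43.3 CPM and 21.9, 27.1, 24.9 and 24.9 CPM in AMPK KO. Torin1 libraries were below DMSO libraries in both genotypes, by -0.43 and -0.85 on the log2 scale, and the interaction was -0.42 ± 0.087 (SE, adjusted p = 0.0035). AMPK KO libraries were above WT libraries with DMSO and, by less, with torin1. The interaction of Mrps2 was -0.29 ± 0.056 (SE, adjusted p = 0.0024).

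Mrpl33, a large subunit protein with a bacterial counterpart, had an interaction of -0.29 ± 0.091 (SE, adjusted p = 0.043). Its WT libraries overlapped, at 27.8, 26.5, 33.6 and 32.4 CPM with DMSO and 30.5, 29.1, 31.97 and 35.8 CPM with torin1, and its AMPK KO libraries were 28.98, 29.4, 28.5 and 29.8 CPM and 24.4, 25.9, 23.9 and 26.4 CPM. This call was lost on leaving out any of 7 of 16 libraries, with adjusted p between 0.064 and 0.097. Unlike Mrpl34, some members called in both genotypes had interactions that were not called. The values were 0.087 ± 0.10 (SE, adjusted p = 0.64) for Mrps6, 0.01 ± 0.073 (SE, adjusted p = 0.96) for Mrps30 and -0.10 ± 0.082 (SE, adjusted p = 0.52) for Mrps12. A p above the threshold does not show equal responses. Under library size alone, which moved the median of all genes in the torin1 comparison to 0.14 in WT and 0.12 in AMPK KO, the members' medians were -0.14 and -0.19, and 13 rose and 23 fell in WT where TMM scaling gave 6 and 35. The count of interactions ranged from 2 to 9 on leaving out 1 library, and it was 9 without WT torin1 replicate 1, AMPK KO DMSO replicate 3 or AMPK KO torin1 replicate 4, and 7 without WT torin1 replicate 3, AMPK KO DMSO replicate 4 or AMPK KO torin1 replicate 2.

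**Figure D5:**
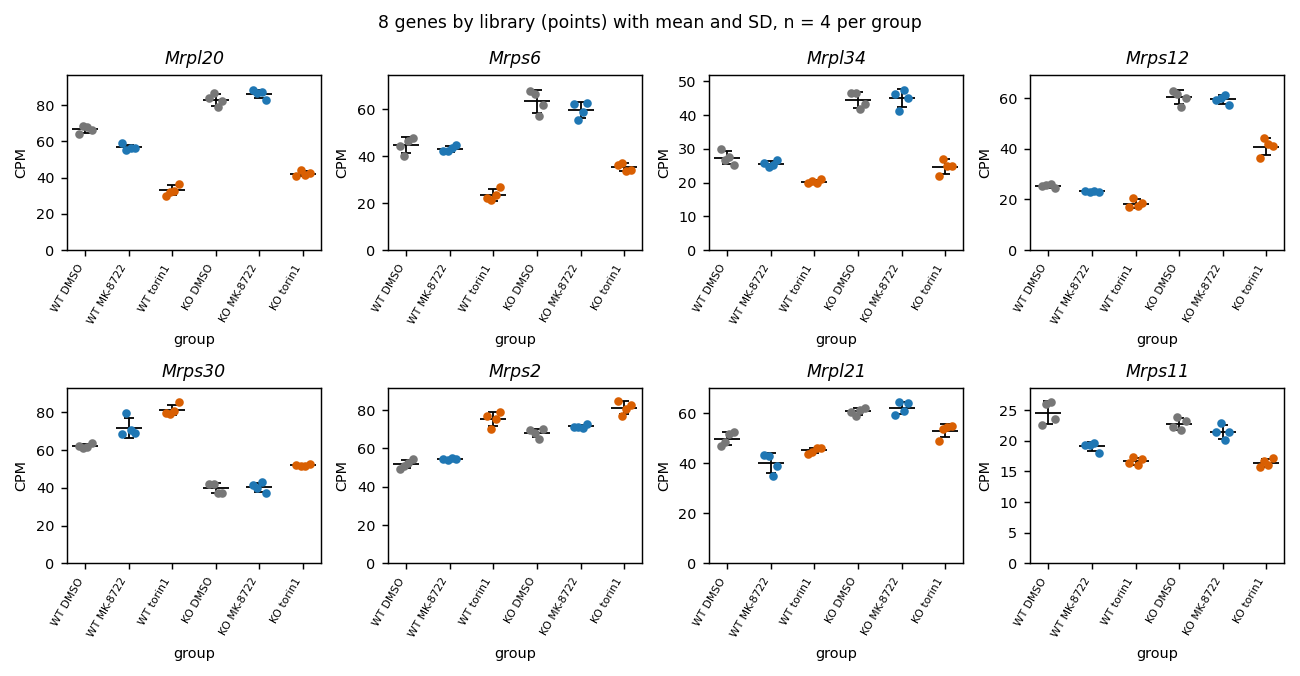
Level of 8 genes (CPM) in each library, with points for the 4 libraries of a group and bars for the mean and the SD. Mrpl20 and Mrps6 are lower with torin1 in both genotypes, Mrps30 is higher, and Mrps12 lies between 56.6 and 62.9 CPM in AMPK KO with DMSO against 24.5 to 26.1 CPM in WT.

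MK-8722 was compared with DMSO to ask whether activation of AMPK moved these genes and whether it did so in the AMPK KO cells. In WT cells 3 members fell and 1 rose, which is 5.13% of the 78 against 15.7% of all genes (5.66% lower, 10% higher). There, 45 of the 78 members had an unadjusted p under 0.05 in edgeR, against 5989 of all 15828 genes. The median log2 fold change was -0.089 beside -0.002 over all genes, and 58 members had a negative and 20 a positive value. Libraries did not overlap for 25 members that were lower and 8 that were higher, against 11.8% and 13.7% of all genes. In AMPK KO cells 0 of the 78 were called by edgeR or by DESeq2, against 1.56% of all genes by edgeR. In edgeR 8 of the 78 members had an unadjusted p under 0.05, against 2610 of all 15828 genes. The median was -0.006 beside 0.002 over all genes. The smallest adjusted p among the members was that of Mrpl41, at 0.23 ± 0.045 (SE, adjusted p = 0.0064), under the fold change of 1.2.

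Mrps11 (chr7:78783119-78792989, plus strand), a small subunit protein of the platform, fell most in WT cells. It measured 22.5, 26, 26.4 and 23.5 CPM with DMSO and 19.4, 19.3, 19.7 and 17.9 CPM with MK-8722 (-0.37 ± 0.057 (SE, adjusted p = 2.9e-05)). In AMPK KO it measured 22.2, 23.9, 21.8 and 23.2 CPM and 21.4, 22.9, 20.1 and 21.4 CPM, with -0.085 ± 0.056 (SE, adjusted p = 0.49). The WT groups were apart and the AMPK KO groups overlapped. Mrpl21 (chr19:3282901-3292837, plus strand), a large subunit protein, fell from 46.8, 48.5, 51.5 and 52.5 CPM to 43.2, 43.1, 34.8 and 38.9 CPM in WT (-0.32 ± 0.056 (SE, adjusted p = 0.00015)), and in AMPK KO its libraries overlapped at 60.7, 58.9, 61.3 and 62.2 CPM and 59.4, 64.5, 60.7 and 64.1 CPM. Without WT MK-8722 replicate 3, the lowest library, the value for Mrpl21 was -0.26, under the fold change of 1.2.

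Mrps26, a small subunit protein particular to mitochondria, fell in WT by a value near the fold change of 1.2 (-0.27 ± 0.043 (SE, adjusted p = 4.3e-05)). It was under that fold change on leaving out WT DMSO replicate 3 or 4 or WT MK-8722 replicate 1, at -0.26. Mrpl57, a short large subunit protein particular to mitochondria, was the member that rose, from 21.97, 23.6, 23.6 and 23.5 CPM to 27.3, 27.6, 29.3 and 28.1 CPM (0.28 ± 0.045 (SE, adjusted p = 5.6e-05)). These WT groups did not overlap, and without WT DMSO replicate 1 or WT MK-8722 replicate 3 the value was 0.24 and 0.26, under the fold change of 1.2. In AMPK KO the libraries of Mrpl57 overlapped, at 26.9, 27.8, 24.8 and 27.2 CPM and 28.2, 29, 26.7 and 26.3 CPM. Without WT DMSO replicate 2 the calls in WT numbered 7, and without WT MK-8722 replicate 3 they numbered 2. All 4 calls lay below a log2 fold change of 0.4 in size, and none was called in a test against a fold change of 1.2.

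The interaction of MK-8722 with genotype was called for 5 members (6.41%), 4 positive and 1 negative, against 12.8% of all genes (5.12% positive, 7.66% negative). It was 0.35 ± 0.079 (SE, adjusted p = 0.0033) for Mrpl21, 0.29 ± 0.065 (SE, adjusted p = 0.0036) for Mrpl20, 0.28 ± 0.079 (SE, adjusted p = 0.016) for Mrps11, 0.27 ± 0.057 (SE, adjusted p = 0.0019) for Mrpl40 and -0.27 ± 0.068 (SE, adjusted p = 0.0077) for Mrpl2. Mrpl20 had 64.1, 68.6, 67.7 and 66.3 CPM with DMSO and 58.8, 55.4, 56.5 and 56.3 CPM with MK-8722 in WT, which do not overlap, and 83.8, 86.8, 78.7 and 82.2 and 88.1, 86.5, 87.1 and 82.7 CPM in AMPK KO, which overlap. Mrpl40, a large subunit protein particular to mitochondria, likewise had 32.99, 32.5, 33.1 and 33.7 and 28.3, 28.7, 27.6 and 26.6 CPM in WT and 45.96, 45.3, 41.9 and 44.03 and 44.6, 46.2, 44.7 and 44.2 CPM in AMPK KO. The WT values of these genes, -0.23 for Mrpl20 and -0.25 for Mrpl40, were themselves under the fold change of 1.2.

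Mrpl2, of the peptidyl transferase region of the large subunit, went the other way, with 69.7, 68.9, 68.5 and 76.8 and 74.9, 92.2, 81.1 and 82.1 CPM in WT and 72.98, 70.8, 72.03 and 71 and 69.1, 72.02, 67.9 and 67.2 CPM in AMPK KO, and groups that overlapped in both genotypes. On leaving out 1 library the interaction of Mrpl21 was called in each of the 16 fits. That of Mrpl20 went under the fold change of 1.2 without AMPK KO DMSO replicate 3 (0.26), that of Mrpl40 without that library, WT DMSO replicate 4 or WT MK-8722 replicate 4 (0.24 to 0.26), and that of Mrps11 without that library, WT DMSO replicate 3, WT MK-8722 replicate 4 or AMPK KO MK-8722 replicate 2 (0.26). That of Mrpl2 went under it without WT DMSO replicate 1, 2 or 3, WT MK-8722 replicate 2, or AMPK KO MK-8722 replicate 1 or 4 (-0.22 to -0.26). The count was 8 without WT DMSO replicate 1 or 2 and 3 without AMPK KO DMSO replicate 3. Scaled by library size alone, 1 interaction was positive and 1 negative, where TMM scaling gave 4 and 1.

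AMPK KO and WT cells were compared within each treatment. With DMSO, 20 members were higher in AMPK KO and 6 lower, which is 33.3% of the 78 against 56.9% of all genes (30.9% higher, 26% lower). The median was 0.10 beside 0.015 over all genes. With MK-8722, 26 were higher and 4 lower (38.5%, against 58.9% of all genes, 31.4% higher and 27.5% lower), with a median of 0.18 beside 0.019. With torin1, 16 were higher and 8 lower (30.8%, against 54.6% of all genes, 31% higher and 23.6% lower), with a median of 0.047 beside 0.038. The large subunit had 14 higher and 3 lower with DMSO and the small subunit 6 and 3. Of the 19 large subunit proteins particular to mitochondria, 8 were higher and 0 lower with DMSO by edgeR. Of these 19, 14 had an unadjusted p under 0.05. That threshold is looser than the one that called 56.9% of all genes, so these shares are not comparable.

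Mrps12 (chr7:28739641-28741820, minus strand), the small subunit protein beside the decoding centre of the ribosome, differed most. With DMSO it measured 25.3, 25.8, 26.1 and 24.5 CPM in WT and 62.9, 61.8, 56.6 and 60.1 CPM in AMPK KO, with MK-8722 23.3, 22.9, 23.5 and 23.1 and 59.5, 60.1, 61.3 and 57.3 CPM, and with torin1 16.9, 20.7, 17.3 and 18.8 and 36.4, 44.4, 41.7 and 40.99 CPM. Every AMPK KO library exceeded every WT library under each treatment. The log2 fold changes were 1.25 ± 0.057 (SE, adjusted p = 2.9e-15), 1.36 ± 0.058 (SE, adjusted p = 5.9e-16) and 1.15 ± 0.059 (SE, adjusted p = 2.3e-14). With torin1 the gene fell in WT by 0.47 and in AMPK KO by 0.56 on the log2 scale.

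The start of Mrps12 lies 172 bases from that of Sars2, the mitochondrial seryl-tRNA synthetase, which is read in the opposite direction, so the promoter printed above reaches past the start of Sars2. Sars2 was looked at after the values of Mrps12 had been seen. Its log2 fold changes between genotypes were 1.21 ± 0.054 (SE, adjusted p = 1.7e-15) with DMSO, 1.25 with MK-8722 and 1.22 with torin1. Its torin1 value was -0.008 in WT (adjusted p = 0.92), where Mrps12 fell. No exonic bases and no stretches of 31 bases of Mrps12 are shared with another gene's exons or transcripts. Starts of neighbours within 1000 bases in divergent orientation were found for 32 members in 31 pairs. With DMSO, where 56.9% of all genes were called, both genes of a pair were called between genotypes in 9 pairs, in the same direction in all 9. The Mrps12 pair is 1 of them, and without it the count was 8 of 8. Pearson's r of the log2 fold changes over the pairs was 0.43, and 0.27 without the Mrps12 pair. With torin1 in WT both were called in 10 pairs, in the same direction in 6, with r of 0.28. Exons of some pairs overlap on opposite strands, so their reads may be mixed. Why genes of a pair agreed was not tested.

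Mrpl34 was higher in AMPK KO with DMSO (0.70 ± 0.061 (SE, adjusted p = 3e-10)) and MK-8722 (0.81 ± 0.061 (SE, adjusted p = 2.2e-11)) and less so with torin1 (0.28 ± 0.062 (SE, adjusted p = 0.00032)), as its library values above show. Mrpl38, a large subunit protein of the central protuberance, had 76.5, 75.9, 78.4 and 85.7 CPM in WT and 126, 128, 112 and 128 CPM in AMPK KO with DMSO (0.64 ± 0.053 (SE, adjusted p = 1.4e-10)), and its fold changes were 0.73 with MK-8722 and 0.56 with torin1. Mrpl49 had 67.4, 63.2, 68.99 and 63.5 and 97.6, 94.8, 96.4 and 95.03 CPM with DMSO (0.55 ± 0.038 (SE, adjusted p = 5.5e-12)), and 0.78 and 0.31 with the drugs. For both genes all AMPK KO libraries exceeded all WT libraries with DMSO. Mrpl39 was higher by 0.57, 0.65 and 0.57 with DMSO, MK-8722 and torin1, and Mrpl40 by 0.42, 0.69 and 0.34. Mrps6, with the reservation on its exons, was higher by 0.50, 0.47 and 0.59. Mrpl43 was higher by 0.46 and 0.46 with DMSO and torin1, and Mrpl44 by 0.46 and 0.42 with MK-8722 and torin1. Exons of Twnk on the opposite strand cover 33.4% of the exonic bases of Mrpl43, so reads may be mixed there. Twnk was itself called higher in AMPK KO, by 0.36 with DMSO and 0.54 with torin1.

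Mrps30 was the member with the largest difference in the other direction. From the libraries given above, all AMPK KO values with DMSO were below all WT values, with log2 fold changes of -0.65 ± 0.052 (SE, adjusted p = 9.4e-11) with DMSO, -0.84 ± 0.052 (SE, adjusted p = 7.6e-13) with MK-8722 and -0.64 ± 0.052 (SE, adjusted p = 9.8e-11) with torin1. Mrpl3 and Mrpl4, large subunit proteins with a bacterial counterpart, were lower under all treatments, by -0.46, -0.37 and -0.33 and by -0.45, -0.34 and -0.39. Mrps16 was lower with DMSO (-0.37) and torin1 (-0.52), and Mrpl36 with DMSO (-0.34) and MK-8722 (-0.40). Mrps36 was lower with DMSO (-0.32 ± 0.058 (SE, adjusted p = 3.8e-05)), and with torin1 Mrpl33, Mrpl52, Mrps22 and Mrps35 were called lower, by -0.34, -0.30, -0.30 and -0.29. Without AMPK KO torin1 replicate 1 the value of Mrps35 was -0.26, under the fold change of 1.2.

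Mrpl12 had 0.051 ± 0.05 (SE, adjusted p = 0.37) with DMSO and was higher with MK-8722 (0.30 ± 0.05 (SE, adjusted p = 7.8e-06)). Leaving out AMPK KO MK-8722 replicate 1 put it at 0.25, under the fold change of 1.2. Over 21 alternative runs, this one included, the call was lost in 4, and values ran from 0.01 to 0.42. Mrpl58 was higher under all treatments, by 0.27, 0.34 and 0.33. It was under the fold change of 1.2, at 0.22 to 0.25, with DMSO without WT DMSO replicate 1, 2 or 3 or AMPK KO DMSO replicate 1 or 2, and at 0.23 to 0.26 with torin1 without WT torin1 replicate 3 or AMPK KO torin1 replicate 2 or 4. Over 21 alternative runs, these included, the call of Mrpl58 was lost in 10 with DMSO, 2 with MK-8722 and 5 with torin1. Its values ran from 0.027 to 0.41, from 0.066 to 0.45 and from 0.15 to 0.43. The members' medians moved with the scaling, and with torin1 the sign did too. Under library size alone, which put the median of all genes at 0.16 with DMSO, the members' median was 0.24 with 37 higher and 3 lower. After removal of a trend with GC content and transcript length the members' medians were 0.016, 0.068 and -0.071 with DMSO, MK-8722 and torin1. With torin1 the median also turned negative without WT torin1 replicate 1 or 3 or AMPK KO torin1 replicate 2 or 4, from -0.029 to -0.038, and the split was 24 higher and 3 lower under library size and 15 and 12 under DESeq2 size factors.

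Other genes of mitochondrial translation were taken as whole lists, which like the members were chosen with earlier results of these data known. With torin1, 26.6% of all genes rose and 21.1% fell in WT, and 25.9% rose and 17.6% fell in AMPK KO. Of 5 small and large subunit proteins with other names, 2 fell with torin1 in WT and 3 in AMPK KO. Chchd1, a small subunit protein, fell in both (-0.57 ± 0.055 (SE, adjusted p = 4.7e-09) and -0.49 ± 0.056 (SE, adjusted p = 8.9e-08)), as did Gadd45gip1, a large subunit protein (-0.39 ± 0.058 (SE, adjusted p = 3.4e-06) and -0.41 ± 0.058 (SE, adjusted p = 2.3e-06)). Of 27 assembly factors and modifying enzymes of the mitochondrial ribosome, 11 rose and 3 fell in WT (median 0.22) and 10 rose and 2 fell in AMPK KO (median 0.086). The largest rises in WT were those of Tfb1m, which methylates the small ribosomal RNA (1.11 ± 0.14 (SE, adjusted p = 2.4e-07)), Mrm1, which methylates the large ribosomal RNA (0.95 ± 0.11 (SE, adjusted p = 1.4e-07)), and the GTPase Mtg1 (0.77 ± 0.089 (SE, adjusted p = 8e-08)), and the largest fall was that of Mterf3 (-0.71 ± 0.064 (SE, adjusted p = 1.3e-09)). Tfb1m rose from a mean of 7.11 TPM with DMSO and Mrm1 from 5.56 TPM, so these are transcripts of low level.

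Of all genes, 26.6% were higher and 21.1% lower with torin1 in WT, and 25.9% and 17.6% in AMPK KO. Among 13 translation factors, 3 rose and 2 fell in WT and 1 rose and 2 fell in AMPK KO, with Gfm1, the mitochondrial elongation factor G, lower in both (-0.56 ± 0.054 (SE, adjusted p = 3.7e-09) and -0.39 ± 0.053 (SE, adjusted p = 1.1e-06)). Of the 13 mRNAs encoded by mitochondrial DNA, 2 rose and 2 fell in WT and 1 rose and 3 fell in AMPK KO, with medians of 0.017 and -0.14. Of 10 regulators of nuclear genes for mitochondria, 5 fell and 1 rose in WT and 3 fell and 1 rose in AMPK KO. Nrf1 fell in both (-0.60 ± 0.046 (SE, adjusted p = 7.7e-11) and -0.40 ± 0.046 (SE, adjusted p = 9.3e-08)), Gabpb1 and Yy1 fell in WT by 0.55 and 0.45 on the log2 scale, and Atf4, a factor of the amino acid response, fell in both by 1.86 and 1.68.

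Set beside these, the 76 nuclear genes of the respiratory chain and ATP synthase had 0 higher and 48 lower with torin1 in WT (median -0.36) and 0 higher and 52 lower in AMPK KO (median -0.41). The 85 tested of 88 cytosolic ribosomal proteins had 5 higher and 3 lower in WT (median 0.071) and 7 higher and 3 lower in AMPK KO (median 0.046). Between genotypes with DMSO, the respiratory chain list had 21 higher and 12 lower (median 0.079) and the cytosolic list 5 higher and 20 lower (median -0.15), where the members had 20 and 6. With MK-8722 in WT, 0 respiratory chain genes were called by edgeR and 1 cytosolic gene was lower. Over all genes, 26.6% were higher and 21.1% lower with torin1 in WT, and 25.9% and 17.6% in AMPK KO. Between genotypes with DMSO the shares were 30.9% and 26%, and with MK-8722 in WT 10% and 5.66%. The lists were set beside the members as counts, and differences between lists were not tested.

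Promoters of 69 members matched the RefSeq table, which holds 250 bases before to 50 after each start, and 6 motifs were searched on both strands. The ETS core CCGGAAG was found in 26 members (37.7%), against 19.6% of tested genes and 9.9% of all genes with a promoter there. The YY1 core AAGATGGC was found in 12 (17.4%, against 5.2% and 3.2%), the NRF1 core GCATGCGC in 8 (11.6%, against 5.8% and 3.0%) and the CCAAT box CCAATCA in 9 (13.0%, against 12.2% and 9.0%). The E-box of the CLEAR type CACGTGAC, the kind of site bound by TFEB, was found in 3 (4.3%, against 4.7% and 2.5%), and the cyclic AMP response element TGACGTCA in 2 (2.9%, against 3.6% and 2.0%). A match is a description of letters and not of binding, and since the ETS core ends and the YY1 core begins with AAG, a single stretch can match both. With torin1 in WT cells, where 21.1% of all genes were lower, 8 of the 12 members with the YY1 core fell and 0 rose by edgeR, as 23 of the 57 without it fell and 5 rose (medians -0.33 and -0.19). The AMPK KO counts, where 17.6% of all genes were lower, were 7 of the 12 and 22 of the 57 (medians -0.28 and -0.23). Of the members with the ETS core, 13 of 26 fell in WT and 11 in AMPK KO, and of those without it 18 of 43 fell in each (medians -0.26 and -0.21 in WT, -0.25 and -0.25 in AMPK KO). Of the 9 members with the CCAAT box, 2 fell and 1 rose in WT and 2 fell and 2 rose in AMPK KO (medians 0.17 and 0.087), and of the 60 without it 29 fell in WT and 27 in AMPK KO (medians -0.25 in each). Of the 8 members with the NRF1 core, 1 fell and 1 rose in WT and 1 fell in AMPK KO (medians 0.055 and -0.11), and of the 61 without it 30 and 28 fell (medians -0.25 in each). Between genotypes with DMSO the median was -0.12 for members with the YY1 core and 0.14 for those without it. These groups of genes were not tested against each other.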

How the data were processed

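Poly(A) RNA of 24 MEF libraries was sequenced by the authors, who ran nf-core/rnaseq with STAR, Salmon and molecular identifiers on GRCm38, per the study's methods and the submitters' processing notes. The deposited gene table holds estimated counts, which are not normalized. The deposited transcript tables hold TPM, scaled by the authors' tools for length and depth, and were summed per gene. The strand setting is not given in the sources used here, so reads of overlapping genes on opposite strands may be mixed.

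For testing, estimated counts were rounded and filtered (filterByExpr), and edgeR 4.0.16 in R 4.3.3 fitted its quasi-likelihood model with TMM scaling to the means of the 6 groups (24 libraries, two-sided, Benjamini-Hochberg over 15828 genes). Calls needed a fold change of 1.2 or more with an adjusted p below 0.05, and "fell", "rose", "higher" and "lower" describe called genes. The common biological coefficient of variation equalled 0.079, and TMM factors entered the CPM. Libraries of a group differed by 3.65 to 28.1 times the sampling noise (chi-square per degree of freedom), so none was counted as a copy. On counts simulated for torin1 in WT (15321 genes, 200 changed), 72.7% of changes of 0.5 and 89.8% of changes of 1 (log2) were called, and 7 of 167 calls were false. The simulation gave every gene the same biological variation and changed few genes, whereas 47.6% of all genes were called with torin1 in WT. It checks that the fit runs as intended, and its rates do not carry over to the calls reported here.

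The members and lists were chosen with earlier results of these data known. Named were, per comparison, up to 6 called members with the largest rise and up to 6 with the largest fall at a mean of at least 5 CPM, the 3 highest and 3 lowest by TPM per subunit, called interactions, called members against the median's direction, and Mrpl12, Mrpl58, Mrps30, Mrps36 and Mrps18a to Mrps18c. Further members were named after their values were seen. Positions are from GENCODE M21, in which all 78 members are protein-coding. Exons of another gene cover over 10% of the exonic bases of 17 members, whose values are uncertain to that extent. Alternatives were other scalings, filters, thresholds and fits, DESeq2 1.42.0, a length offset, removal of spline trends in GC content and length, blocks, and leaving out each library.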

Additional observations from a re-analysis of the deposited data

Results flagged for a closer look

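Single libraries stood apart from the other libraries of their group for 6 of 114 groups examined, by Dixon's test, and chance flags about 1 in 20 groups. The 114 groups covered 16 genes and also summaries of each library over all members, and all 6 flags were for genes. Mrps30 had 79.7 CPM in WT MK-8722 replicate 2, against 68.6 to 70.5 CPM in the others. Mrpl57 had 21.97 CPM in WT DMSO replicate 1, against 23.5 to 23.6 CPM. Mrpl2 had 76.8 CPM in WT DMSO replicate 4, against 68.5 to 69.7 CPM. Mrpl38 had 112 CPM in AMPK KO DMSO replicate 3, against 126 to 128 CPM, and 101.8 CPM in AMPK KO torin1 replicate 1, against 114 to 116 CPM. Mrpl49 had 52.7 CPM in WT MK-8722 replicate 2, against 56.4 to 57.0 CPM.

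The response to a drug differed between genotypes, as a called interaction in edgeR, for 8 members. These were 5 of the 78 with MK-8722 and 3 with torin1, against 12.8% and 7.07% of all genes. With MK-8722 the log2 difference of responses (AMPK KO minus WT) was 0.35 ± 0.079 (SE, adjusted p = 0.0033) for Mrpl21, 0.29 ± 0.065 (SE, adjusted p = 0.0036) for Mrpl20, 0.28 ± 0.079 (SE, adjusted p = 0.016) for Mrps11, 0.27 ± 0.057 (SE, adjusted p = 0.0019) for Mrpl40 and -0.27 ± 0.068 (SE, adjusted p = 0.0077) for Mrpl2. With torin1 it was -0.42 ± 0.087 (SE, adjusted p = 0.0035) for Mrpl34, -0.29 ± 0.091 (SE, adjusted p = 0.043) for Mrpl33 and -0.29 ± 0.056 (SE, adjusted p = 0.0024) for Mrps2. On leaving out 1 library the call of Mrpl33 was lost in 7 of 16 fits and that of Mrpl2 in 6 of 16. None of the 8 was called in a test against a fold change of 1.2.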

How the results depend on the processing

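No named member that was called reversed its direction under any alternative run. Over all named members and runs, 2610 outcomes stayed the same, 173 calls were lost and 68 were gained. Comparisons are given in the order MK-8722 (WT, then AMPK KO), torin1 (likewise), genotypes compared with DMSO, MK-8722 and torin1, and the interactions of MK-8722 and torin1, for which 4, 0, 41, 38, 26, 30, 24, 5 and 3 members were called. Of all genes 15.7, 1.56, 47.6, 43.5, 56.9, 58.9, 54.6, 12.8 and 7.07% were called. Counts under other rules have no share of all genes beside them here. They describe how the calls moved and not how members differ from other genes. Adjusted p alone called 34, 1, 66, 72, 52, 62, 55, 16 and 7 members, and a fold change of at least 1.5 called 0, 0, 7, 8, 4, 10, 3, 0 and 0 in edgeR. A test against a fold change of 1.2 called 0, 0, 27, 29, 18, 19, 14, 0 and 0, and DESeq2 called 4, 0, 42, 44, 26, 31, 27, 5 and 3. The torin1 interactions were 6 at 10 or more counts in every library and 8 with the compared libraries alone, those of MK-8722 were 2 under library size alone, and the genotypes with DMSO gave 40 there. Medians, in the order torin1 (WT, then AMPK KO), genotypes with DMSO, MK-8722 and torin1, and torin1 interaction, were -0.24, -0.25, 0.10, 0.18, 0.047 and -0.049. They became -0.14, -0.19, 0.24, 0.29, 0.15 and -0.086 under library size alone, and -0.20, -0.19, 0.016, 0.068, -0.071 and -0.017 with the trend in GC content and length removed. With 10 or more counts in every library, the median was -0.20 for torin1 in WT, 0.16 and 0.24 between genotypes with DMSO and MK-8722, and -0.099 for the torin1 interaction. Without a filter it was -0.26 for torin1 in WT and 0.052, 0.14 and 0.004 between genotypes with DMSO, MK-8722 and torin1. With the compared libraries alone it was -0.30 for torin1 in AMPK KO, 0.01 between genotypes with torin1 and -0.12 for the torin1 interaction. The length offset gave 0.14 and 0.013 between genotypes with MK-8722 and torin1. The cause of these shifts was not tested. Leaving out each library in turn gave counts of 2 to 7, 0 to 0, 40 to 45, 39 to 53, 24 to 28, 22 to 32, 24 to 29, 3 to 8 and 2 to 9, and medians of -0.12 to -0.076, -0.03 to 0.002, -0.26 to -0.20, -0.31 to -0.24, 0.055 to 0.11, 0.14 to 0.18, -0.038 to 0.062, 0.063 to 0.094 and -0.13 to -0.031.

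Replicate numbers did not pair the libraries. Deviations of same-numbered libraries correlated at -0.20 to 0.25 within a genotype, with 4 of 24 pairs over 0.1, and those of the same passage at -0.011 to 0.37, with 15 of 24. With the replicate block 41 members were called with torin1 in WT and 38 in AMPK KO, as without it, and the passage block gave 42 and 38. The other counts were the same with either block, except that genotypes share no passage and could not be fitted with it. In CPM in place of TPM, the highest members in WT with DMSO were Mrpl12 at 126 CPM and Mrps7 at 82.8 CPM and the lowest Mrpl36 at 13.3 CPM and Mrps14 at 19.01 CPM. The lowest count of a member in any library was 239, where precision rests on counting error as well as on the spread between libraries.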
